A study of Mus musculus with 11 samples.

Results

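Cytosolic ribosomes are built from a small 40S subunit, which reads the mRNA, and a large 60S subunit, which joins the amino acids. Each subunit holds ribosomal RNA and a fixed set of ribosomal proteins, named RPS for the small and RPL for the large subunit, and the acidic proteins RPLP0, RPLP1 and RPLP2 form the stalk on which elongation factors act. In mammals most of these proteins are encoded by 1 expressed gene that has left many processed pseudogenes in the genome, and their mRNAs typically start with a run of pyrimidines, the 5′ terminal oligopyrimidine (TOP) motif, through which the mTOR pathway controls their translation. Embryonic stem cells and fibroblasts in culture both make these mRNAs at high levels.

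The genes described here are the protein-coding genes of the RNA-seq tables whose names start with Rpl or Rps followed by a number, or are Rplp0, Rplp1, Rplp2 or Rpsa, without the Rps6k kinases and names that mark pseudogenes. This rule found 86 of the 31518 genes listed for mouse embryonic stem cells (mESCs) and 85 of the 29450 listed for mouse embryonic fibroblasts (MEFs), where Rpl10l was not listed. Of the 86 genes, 77 are canonical (31 of the 40S and 46 of the 60S subunit) and 9 are paralogues or others: Rpl3l, Rpl7l1, Rpl10l, Rpl22l1, Rpl36al, Rpl39l, Rps27l, Rps27rt and Rps19bp1, the last of which encodes a binding partner of RPS19 and not a ribosomal protein.

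The study asked how loss of ATXN7L3, an adaptor of the enzymes that remove monoubiquitin from histone H2B, changes steady-state mRNA levels. Poly(A)-selected RNA was sequenced from 2 WT (Atxn7l3+/+) and 3 Atxn7l3-/- mESC libraries and from 3 WT and 3 Atxn7l3-/- MEF libraries, all of DBA/2 x C57BL/6 background and without treatment. The mESCs were derived from blastocysts, kept at first on feeder cells and then without them in LIF and the kinase inhibitors PD0325901 and CH99021, and the MEFs came from E10.5 embryos without head and gut. The null allele is constitutive and each line came from its own embryo. Library totals ranged from 34515342 to 49602605 counts, so that 3 counts, taken as the limit of detection, correspond to between 0.0605 and 0.0869 CPM (counts scaled to the library size after TMM normalization).

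Atxn7l3 itself was at 222 and 223 CPM in the WT mESCs and between 0.976 and 3.91 CPM in the Atxn7l3-/- mESCs. In MEFs it was between 79.7 and 104 CPM in WT and still between 49.2 and 67.3 CPM in the libraries labelled Atxn7l3-/-, which are called labelled Atxn7l3-/- below for that reason. That wording concerns the counted RNA only. The paper reports that ATXN7L3 protein could not be detected in Atxn7l3-/- MEFs and that global H2Bub1 rose in them. Pou5f1, the pluripotency factor, had between 37580 and 47696 counts in the mESC libraries and was not listed for MEFs, and the summed level of 9 fibroblast markers was between 9370 and 41470 CPM in the 6 MEF libraries. The summed level of the mesothelial markers Wt1, Msln and Upk3b, all 3 called higher, went from between 6.43 and 24.8 CPM in WT to between 2235 and 3201 CPM in MEFs labelled Atxn7l3-/-. Transcripts of the Y-linked gene Ddx3y were few in Atxn7l3-/- mESC replicates 1 and 2 (115 and 37 counts) and in WT MEF replicate 3 (10 counts) against between 2123 and 10546 in the other 8 libraries.

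Much of the sequence of ribosomal protein mRNAs is shared with other genes, which bears on every count below. A word of 50 bases from a gene's principal mRNA was called unique when no transcript of another annotated gene held it. The median share of unique words was 45.5% over the 86 genes against 100% over 15677 other protein-coding genes tested, and it was under 50% for 50 of the 86 genes against 2.94% of the others. For 82 genes, at least 1 partner sharing a word was an annotated pseudogene, with a median of 8 and up to 118 such partners. How reads with several matches were counted is not given in the sources used here.

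Rps27 and its paralogues show how far this goes. The 60 first coding bases of the parent gene on chromosome 3, of the retrogene Rps27rt and of Rps27l, which encodes a paralogue of RPS27, are printed below 5′ to 3′, with capitals marking bases that differ from Rps27. The last 60 bases before the stop codon of Rpl39, the X-linked gene of a small 60S protein, and of its paralogue Rpl39l follow, with capitals marking bases that differ from Rpl39. All are from GENCODE M21 on mm10, and the stretches of Rps27, Rps27l and Rpl39 include introns in their coordinates.
Rps27, chr3:90213248-90213615, minus strand: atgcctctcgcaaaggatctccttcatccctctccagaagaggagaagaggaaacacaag
Rps27rt, chr9:114982648-114982707, minus strand: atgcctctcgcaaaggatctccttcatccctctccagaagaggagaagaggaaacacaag
Rps27l, chr9:66946175-66946884, plus strand: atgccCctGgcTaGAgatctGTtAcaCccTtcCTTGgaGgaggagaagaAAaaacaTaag
Rpl39, chrX:37082704-37083998, minus strand: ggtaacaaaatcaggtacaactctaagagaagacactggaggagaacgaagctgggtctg
Rpl39l, chr16:10174403-10174462, plus strand: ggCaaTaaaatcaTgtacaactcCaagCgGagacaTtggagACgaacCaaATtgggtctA

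Over the whole coding part of 252 bases Rps27rt did not differ from Rps27 at any base, whereas Rps27l differed at 60 bases (76.2% identity). Rpl39l differed from Rpl39 at 23 of 153 bases (85.0% identity). Accordingly 1.35% of the words of the Rps27 mRNA and 8.92% of those of Rps27rt were unique, against 77.6% for Rps27l, 83.8% for Rpl39 and 100% for Rpl39l. Counts of Rps27 and Rps27rt are therefore uncertain, while those of Rps27l and Rpl39l can be told from their parents.

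RefSeq promoters of build GRCm38.p6 were matched by symbol for 66 of the 86 genes (78 promoters). Those without a match included Rpl17, Rpl21, Rpl23a, Rpl29, Rpl3, Rpl30, Rpl32, Rpl36, Rpl7, Rpl8, Rplp1, Rps14, Rps20, Rps27a and Rps29. Windows of 30 bases, 15 before the annotated start and 15 from it on, are shown for the 3 genes with the largest increase in Atxn7l3-/- mESCs, all on chromosome 17, and for 5 genes with a long pyrimidine run at the start. Capitals mark the unbroken run of C and T that covers the annotated start.
Rps2, chr17:24720048-24720077, plus strand: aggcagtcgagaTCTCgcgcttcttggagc
Rps28, chr17:33824548-33824577, minus strand: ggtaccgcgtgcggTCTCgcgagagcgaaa
Rps18, chr17:33955651-33955680, minus strand: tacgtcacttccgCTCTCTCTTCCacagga
Rpl35, chr2:39005117-39005146, minus strand: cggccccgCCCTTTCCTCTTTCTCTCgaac
Rpl7a, chr2:26910792-26910821, plus strand: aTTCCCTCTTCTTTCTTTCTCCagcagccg
Rpl15, chr14:18270972-18271001, minus strand: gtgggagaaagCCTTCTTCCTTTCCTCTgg
Rpl28, chr7:4792950-4792979, plus strand: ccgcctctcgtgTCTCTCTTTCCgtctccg
Rplp2, chr7:141447636-141447665, plus strand: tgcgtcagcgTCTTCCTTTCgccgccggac

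A run of at least 5 pyrimidines covered an annotated start in 21 of the 66 genes (31.8%) against 11.8% of 27025 genes with a promoter in the same table. CTTCC or CTTTC in the sense direction lay within 10 bases of a start in 18 genes (27.3%) against 8.17% of all genes. Over the 300 bases and both strands, GGAAG, the core of ETS factor sites, was present in 61 genes (92.4%) against 73.9%, AAGATGG, which holds the core of YY1 sites, in 10 genes (15.2%) against 7.28%, and TATAAA in 7 genes (10.6%) against 15.7%. GGAAG on the opposite strand reads CTTCC, so these searches overlap, and a match is a description of the window only. Among the 3 genes named first, the run was 11 bases long in Rps18 and 4 bases long in Rps2 and Rps28.

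The level of the genes was compared on the deposited scale of normalized reads per kb of median transcript length, each cell type for itself. All 77 canonical genes had a median above 10 reads per kb in both cell types, but the medians spanned 48.4 to 161982 in mESCs and 29.3 to 63065 in MEFs, with a median over genes of 5069.5 and 2593, against 245 and 279 over all listed protein-coding genes. The highest level in mESCs was that of Rpl4 (161982 reads per kb, 118557 to 212307 over the 5 libraries), a 60S protein gene, followed by Rps3 (106726), whose product lies at the mRNA entry site of the 40S subunit. Rpl8 (67795) and Rps14 (63238) were also among the highest. The ranges of these genes over the libraries overlapped from each gene to the next one named. In MEFs Rpl4 (63065 reads per kb) and Rps3 (48576) led again, and Rplp0 (29356) was also among the highest, with a range that overlapped that of Rps3.

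At the low end, Rps29 had a median of 48.4 reads per kb in mESCs and 29.3 in MEFs, Rpl24 had 66.9 and 44.0, Rpl38 had 80.5 in mESCs and Rps6, the 40S protein phosphorylated by S6 kinases, had 50.02 in MEFs. These values lay between the 32.7th percentile (Rps29 in MEFs) and the 40.04th (Rpl38 in mESCs) of all listed protein-coding genes in their cell type, although each of these proteins is a component of the ribosome. The order of the canonical genes was nearly the same in both cell types, with a Spearman's rho of 0.97 across 77 genes. The Spearman correlation of level with the share of unique words was 0.55 in mESCs and 0.61 in MEFs across the same genes, which are not independent replicates. The 30 canonical genes with at least 50% unique words had a median level of 17644 reads per kb in mESCs and 8228 in MEFs, against 2260 and 1003 for the other 47 genes. Rps29, with 64.2% unique words, was the lowest of all in spite of that. Levels between these genes are therefore given as counted, and fold changes below compare each gene with itself.

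**Figure D1:**
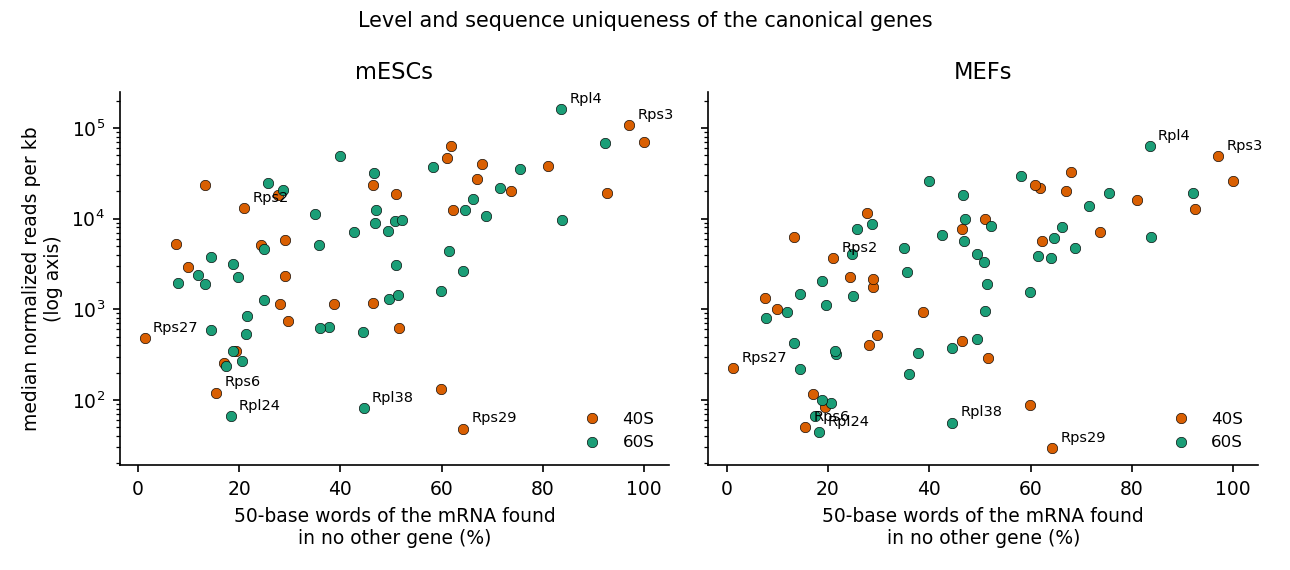
Median normalized reads per kb (log axis) of each of the 77 canonical genes against the percentage of 50-base words of its mRNA found in no other gene, in mESCs (left) and MEFs (right). Each point is a gene, coloured by subunit, and Rpl4 and Rps3 stand at the top right while Rps6 and Rpl24 lie low on the left and Rps29 lies lowest.

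Together the genes took 1.79% and 1.81% of all raw counts in the WT mESCs and 3.27%, 2.40% and 2.83% in Atxn7l3-/- mESC replicates 1, 2 and 3. The mean share was 2.83% ± 0.433 (SD, n = 3) in Atxn7l3-/- against 1.80% ± 0.0118 (n = 2) in WT mESCs, and the libraries did not overlap. In MEFs the share was 0.743%, 1.57% and 1.12% in WT and 0.814%, 0.967% and 1.06% in the libraries labelled Atxn7l3-/-, which all lie within the WT range. In mESCs the canonical 40S genes took 0.785% of counts on average in WT and 1.33% in Atxn7l3-/-, and the canonical 60S genes 0.961% and 1.45%. The mitochondrial ribosomal protein genes, which build a separate ribosome, took 0.386% and 0.413% in WT and between 0.364% and 0.451% in Atxn7l3-/- mESCs, and their libraries overlapped. The sum over genes is a description, without a test.

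**Figure D2:**
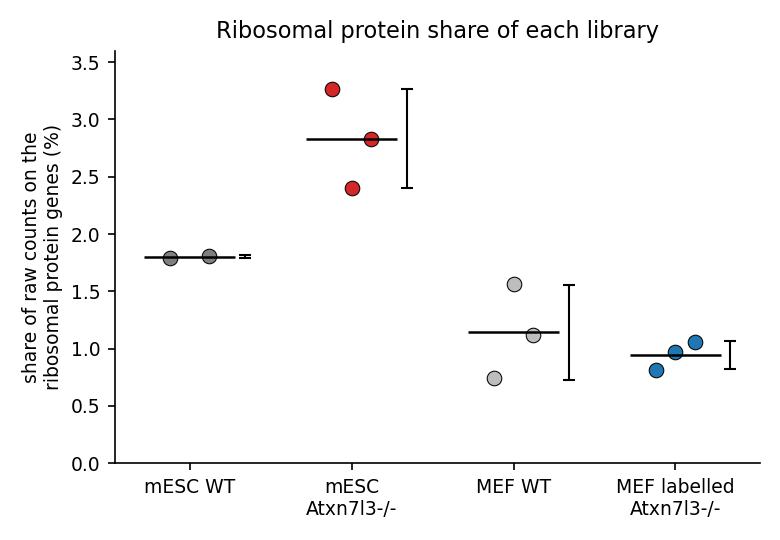
Percentage of raw counts on the ribosomal protein genes in each library, by group; points are libraries, horizontal lines are means and bars are SD. The 3 Atxn7l3-/- mESC libraries sit between 2.40% and 3.27%, above both WT mESC libraries, and the MEF groups overlap.

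In Atxn7l3-/- mESCs most ribosomal protein genes were measured above WT, by a modest amount each. Of the 86 genes tested, 69 (80.2%) had a positive log2 fold change, against 52.3% of all 17800 genes tested, and the median log2 fold change was 0.56 against 0.04 over all genes. All 3 Atxn7l3-/- libraries lay above both WT libraries for 36 of the 86 genes (24.6% of all genes tested) and below them for 11 (25.1% of all genes tested). Few single genes passed the test: 3 were called higher at an edgeR adjusted p of 0.05 or less, where 3.08% of all genes were, and none was called lower, where 3.88% were (6.96% in either direction). At an unadjusted p under 0.05 there were 33 higher and 4 lower genes, where 29.8% of all 17800 genes passed (2666 higher and 2643 lower). At the thresholds of the study, with at least a 2-fold change and over 10 reads per kb, the same 3 genes were higher (2.76% of all genes) and none lower (1.92%). DESeq2 called 23 genes higher and 1 lower, against 9.77% and 9.48% of all genes.

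Rps2, which encodes a 40S protein near the mRNA entry channel, was at 124 and 44.7 CPM in the WT mESCs and at 504, 336 and 451 CPM in the Atxn7l3-/- mESCs. Every Atxn7l3-/- library was above the WT libraries, which themselves differed more than 2-fold. The log2 fold change was 2.35 ± 0.44 (SE; 5.1-fold; edgeR adjusted p = 0.0311). Rps28, a small 40S protein gene, was at 25.2 and 10.3 CPM in WT and at 92.2, 51.5 and 90.4 CPM in Atxn7l3-/- mESCs, which gave 2.14 ± 0.44 on the log2 scale (edgeR adjusted p = 0.0363). Rps18, whose product sits in the head of the 40S subunit, was at 127 and 50.8 CPM in WT and at 427, 330 and 358 CPM in Atxn7l3-/- mESCs, which gave 2.07 ± 0.39 on the log2 scale (edgeR adjusted p = 0.0311). In all 3 genes WT replicate 2 was the lowest library.

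These 3 genes lie on chromosome 17 (mm10), Rps2 at chr17:24718116-24721929, Rps28 at chr17:33819027-33824562 and Rps18 at chr17:33951999-33956001. Among the 832 genes of chromosome 17 that were tested, 4.09% were called higher, against 3.08% of all genes. Chromosome 17 was taken up because these 3 genes lie on it, and they are part of the 8 genes of the set there. Those 8 genes had a median log2 fold change of 1.88 in mESCs, a value that this choice raises. At an unadjusted p under 0.05, 6 were higher and 1 lower, where 2666 and 2643 of all 17800 genes were. The 7 of the 8 genes that were tested in MEFs had a median of -0.75. The 78 genes of the set outside chromosome 17 held no call, with 62 positive log2 fold changes and a median of 0.53. The words of the 3 mRNAs were 21.0%, 24.3% and 13.3% unique, and none of the 36 genes with at least 50% unique words was called. Their median log2 fold change was 0.60, with 30 of 36 positive. Without Rps2, Rps28 and Rps18 the share of counts was still 1.76% and 1.80% in WT and between 2.33% and 3.17% in Atxn7l3-/- mESCs.

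By amount, the most abundant genes contributed the largest parts of the difference. Rpl4 was at 2659 and 2784 CPM in WT and at 4974, 3689 and 4188 CPM in Atxn7l3-/- mESCs (log2 fold change 0.65 ± 0.23, edgeR adjusted p = 0.111), and made up 14.2% of the summed difference of means (10968 CPM). Rps3 was at 1893 and 1829 CPM in WT and at 3822, 2703 and 3220.3 CPM in Atxn7l3-/- mESCs (0.80 ± 0.23, edgeR adjusted p = 0.0749), and made up 12.6% of it. The libraries of both genes did not overlap, and neither passed the test.

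A few genes were measured below WT. Rps29, at 1.07 and 0.996 CPM in WT and 0.301, 0.548 and 0.343 CPM in Atxn7l3-/- mESCs, had the lowest log2 fold change (-1.37 ± 0.51, edgeR adjusted p = 0.126). It rests on 10 to 50 counts per library. Rps13 followed with -0.94 ± 0.33 (edgeR adjusted p = 0.113), at 10.7 and 14.9 CPM in WT and between 5.89 and 7.25 CPM in Atxn7l3-/- mESCs. Rpl15, a 60S protein gene, had -0.88 ± 0.34 (edgeR adjusted p = 0.132), at 131 and 121 CPM in WT and at 101, 42.5 and 61.9 CPM in Atxn7l3-/- mESCs. The libraries did not overlap in any of the 3, and none passed the test.

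The size of the difference varied between libraries. Relative to the WT mean, the median log2 ratio of the 86 genes was 0.85 in Atxn7l3-/- replicate 1, 0.57 in replicate 3 and 0.09 in replicate 2, where 71, 61 and 39 genes were above both WT libraries (43.8%, 42.6% and 39.9% of all genes tested). Without replicate 1, edgeR called 0 of the 86 genes, and without replicate 3 it called 5 higher. Without either WT library, which leaves 1 WT library whose spread is assumed to equal that of the others, 0 of the 86 genes were called. Without replicate 2, 19 were called higher and 1 lower. The share of all genes called in the fits without 1 library is not given here, so these counts cannot be set against it. The median log2 fold change without replicate 2 was 0.72, against 0.03 over all genes. With the libraries that hold Y-linked transcripts only (both WT libraries and replicate 3), a choice made after seeing the data, it was 0.59, against -0.05 over all genes. That fit has 1 Atxn7l3-/- library, whose spread is assumed to equal that of the 2 WT libraries, and does not show that the difference is larger between such libraries. The summed level of the 9 fibroblast markers was between 65.5 and 183 CPM in WT and between 357 and 486 CPM in Atxn7l3-/- mESCs. Col1a1, Col1a2 and Col3a1 carried this difference, with Col1a1 at 10.9 and 52.3 CPM in WT and at 165, 211 and 174 CPM in Atxn7l3-/- mESCs, while Vim, Pdgfra, Pdgfrb and Thy1 overlapped between the genotypes, and 1 of the 8 fibroblast markers tested was called. Of 7 leukocyte markers only Cd68 and Csf1r were listed for mESCs, Cd68 at 62.9 and 28.8 CPM in WT and at 97.4, 70.8 and 130 CPM in Atxn7l3-/-, and Csf1r at 4.10 and 2.76 CPM in WT and between 0.0264 and 1.47 CPM in Atxn7l3-/- mESCs, and neither was called. The part of these cells in the result was not tested. In bulk RNA, fewer cells of a type and less RNA per cell cannot be told apart.

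**Figure D3:**
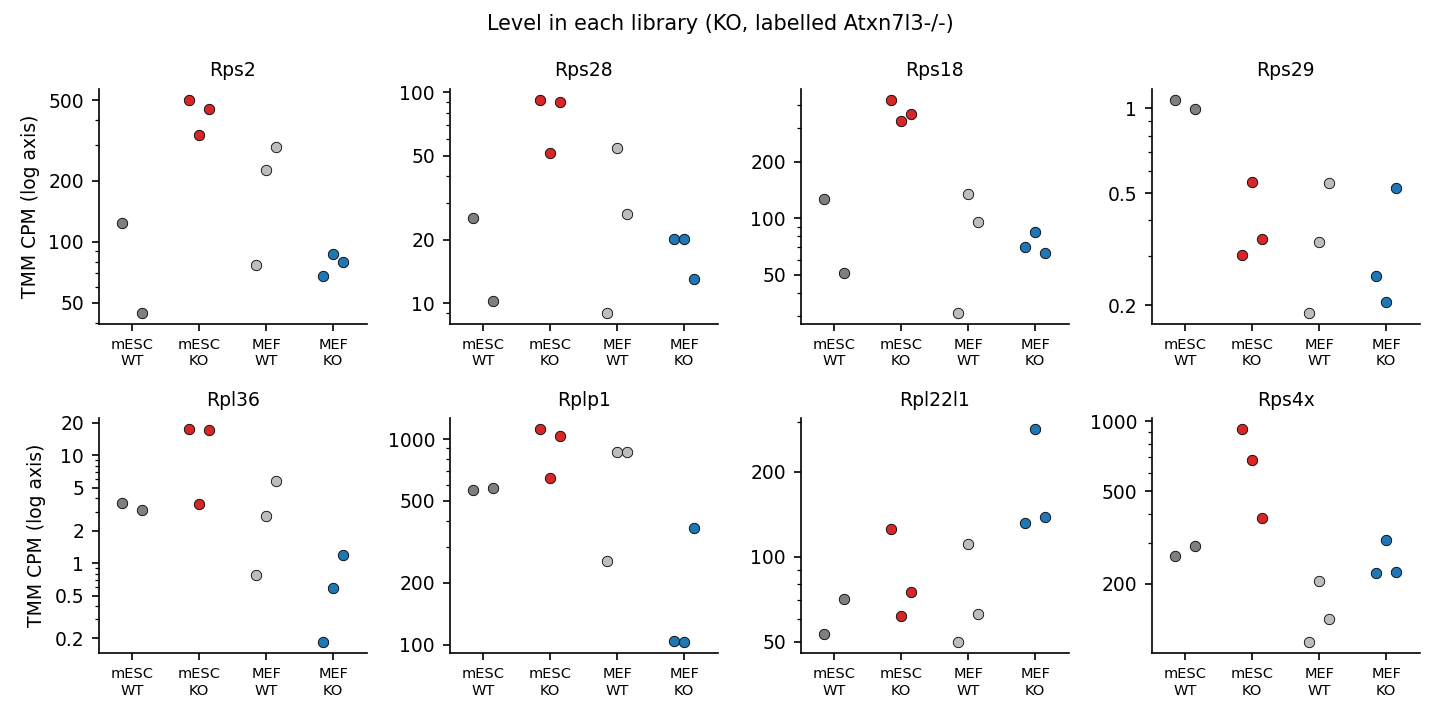
CPM (log axes, own scale in each panel) of 8 ribosomal protein genes in every library of the 4 groups; each point is a library and KO stands for labelled Atxn7l3-/-. Rps2, Rps28 and Rps18 lie above WT in every Atxn7l3-/- mESC library, whereas Rplp1 overlaps between the MEF groups.

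Among the stalk genes, Rplp0 was at 713 and 496 CPM in WT and at 787, 878 and 917 CPM in Atxn7l3-/- mESCs (log2 fold change 0.51 ± 0.23, edgeR adjusted p = 0.176). Rplp1 had 0.71 ± 0.27 (edgeR adjusted p = 0.129) and Rplp2 had 0.75 ± 0.36 (edgeR adjusted p = 0.211). None of the 3 passed the test, and the libraries of Rplp2 overlapped.

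The 4 X-linked genes of the set all had positive log2 fold changes in mESCs (median 0.94) and in MEFs (median 0.34). Among 680 X-linked genes tested in mESCs, 6.62% were called higher and 1.47% lower, against 3.08% and 3.88% of all genes. In MEFs 8.74% and 5.1% of 549 were, against 5.01% and 4.39% of all genes. Rps4x, a 40S protein gene, was at 263 and 290 CPM in WT and at 926, 682 and 382 CPM in Atxn7l3-/- mESCs (1.26 ± 0.36, edgeR adjusted p = 0.0719). Rpl39 was at 57.3 and 92.1 CPM in WT and at 309, 168 and 133 CPM in Atxn7l3-/- mESCs (1.44 ± 0.40, edgeR adjusted p = 0.0666). In both genes replicate 3, which holds Y-linked transcripts, was the lowest of the Atxn7l3-/- libraries and still above WT. Rpl36a had 0.62 ± 0.39 (edgeR adjusted p = 0.324) and Rpl10 had 0.31 ± 0.28 (edgeR adjusted p = 0.493). Without the X-linked genes the share of counts was 1.76% and 1.77% in WT and between 2.31% and 3.15% in Atxn7l3-/- mESCs.

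The paralogues did not move together in mESCs. Rpl39l was at 59.6 and 66.6 CPM in WT and at 48.4, 31.7 and 49.7 CPM in Atxn7l3-/- mESCs, below WT in every library, while its parent Rpl39 was above WT in every library. The log2 fold change of Rpl39l was -0.54 ± 0.25 (edgeR adjusted p = 0.184). Rpl7l1 (-0.48 ± 0.19, edgeR adjusted p = 0.135) stood against Rpl7 (0.66 ± 0.22, edgeR adjusted p = 0.102) in the same way, and the libraries of both did not overlap between the genotypes. Rpl10l, a retrogene known for its role in male meiosis, was at 24.9 and 25.4 CPM in WT and at 22.2, 13.8 and 9.84 CPM in Atxn7l3-/- mESCs (-0.72 ± 0.36, edgeR adjusted p = 0.227).

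Other paralogues lay above WT. Rps27l, a known p53 target, was at 106 and 119 CPM in WT and at 234, 144 and 210 CPM in Atxn7l3-/- mESCs (0.80 ± 0.25, edgeR adjusted p = 0.0845). Rpl3l, the muscle paralogue of Rpl3, was low, at 1.42 and 1.83 CPM in WT and between 3.58 and 9.81 CPM in Atxn7l3-/- mESCs (1.83 ± 0.59, edgeR adjusted p = 0.0935), whereas Rpl3 had -0.03 ± 0.51 (edgeR adjusted p = 0.974). Rpl22l1 had 0.49 ± 0.32 beside 0.76 ± 0.24 for Rpl22, Rpl36al 0.19 ± 0.48, Rps27 0.37 ± 0.41, Rps27rt 0.90 ± 0.52 and Rps19bp1 0.64 ± 0.36. None of these passed the test.

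**Figure D4:**
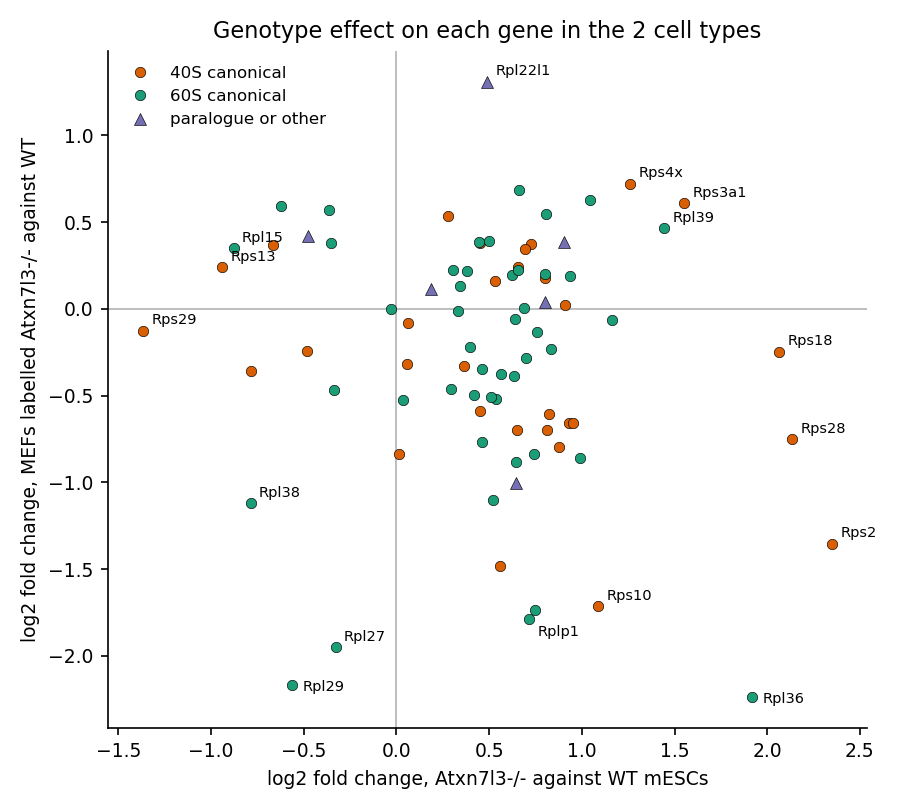
Log2 fold change of each gene in Atxn7l3-/- against WT mESCs (horizontal axis) and in MEFs labelled Atxn7l3-/- against WT (vertical axis), for the genes tested in both; circles are canonical 40S and 60S genes and triangles paralogues and others. Rps2, Rps28 and Rps18 lie farthest to the right, at 2.35, 2.14 and 2.07, and Rpl22l1 lies highest, at 1.31.

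In MEFs labelled Atxn7l3-/- no ribosomal protein gene passed the test without a block on the replicate number, and the genes were spread on both sides of WT. Genes called with the block are named below. Of the 83 genes tested, edgeR called 0 higher, where 5.01% of all 15958 genes were, and 0 lower, where 4.39% were (9.41% in either direction), and none passed the thresholds of the study (4.34% and 3.26% of all genes). At an unadjusted p under 0.05, 5 genes were higher and 9 lower, where 32.4% of all genes passed (2327 higher and 2839 lower). DESeq2 called 1 higher and 7 lower, against 10.9% and 14% of all genes. A positive log2 fold change was found for 36 genes (43.4%, against 47.5% of all genes), and the median was -0.13 against -0.06. The libraries did not overlap for 10 genes above WT (20% of all genes) and 2 below (19.8% of all genes).

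The gene with the largest positive value was Rpl22l1, a paralogue of Rpl22 that can replace it in the 60S subunit. It was at 49.8, 111 and 62.4 CPM in WT and at 132, 283 and 139 CPM in the MEFs labelled Atxn7l3-/-. All 3 were above all WT libraries, and within each replicate number the ratio was above 1. The log2 fold change was 1.31 ± 0.43 (edgeR adjusted p = 0.0933), and blocking on the replicate number it was 1.30 ± 0.19 and passed (edgeR adjusted p = 0.0227). Rps4x, at 112, 205 and 141 CPM in WT and at 223, 308 and 224 CPM in MEFs labelled Atxn7l3-/- (0.72 ± 0.28, edgeR adjusted p = 0.137), and Rpl7, at 259, 414 and 303 CPM against 477, 636 and 458 CPM (0.69 ± 0.27, edgeR adjusted p = 0.136), came next. Their libraries did not overlap either.

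At the other end, Rpl36 was at 0.770, 2.73 and 5.74 CPM in WT and at 0.185, 0.593 and 1.18 CPM in MEFs labelled Atxn7l3-/- (-2.24 ± 0.93, edgeR adjusted p = 0.15). The groups overlapped, but each library was below the WT library of its number, and with the block the value was -2.18 ± 0.41 (edgeR adjusted p = 0.0333). Rpl36 was low in these cells, with 0.185 CPM against a limit of detection of 0.0694 CPM in that library. Its WT libraries differed at least 5-fold, and 18.9% of the words of its mRNA were unique. Rps10, a 40S gene mutated in some families with Diamond-Blackfan anaemia, was the other gene called lower with the block, where 8.49% of all genes were called lower and 5.5% higher. It was at 17.6, 56.1 and 78.9 CPM in WT and at 10.4, 11.2 and 24.9 CPM in MEFs labelled Atxn7l3-/- (-1.71 ± 0.60, edgeR adjusted p = 0.109; -1.58 ± 0.36, edgeR adjusted p = 0.0477 with the block). Rpl29 (-2.17 ± 1.10, edgeR adjusted p = 0.219) and Rpl27 (-1.95 ± 0.77, edgeR adjusted p = 0.136) had overlapping libraries. With the block and a correction for GC content together, Rpl22l1 and Rpl13a were called higher and no gene lower.

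The acidic stalk genes were among the lower values. Rplp1 was at 254, 869 and 869 CPM in WT and at 104, 103 and 370 CPM in MEFs labelled Atxn7l3-/- (-1.79 ± 0.69, edgeR adjusted p = 0.13). Rplp2 was at 41.4, 169 and 228 CPM in WT and at 29.6, 40.8 and 60.9 CPM in MEFs labelled Atxn7l3-/- (-1.74 ± 0.61, edgeR adjusted p = 0.107), and Rplp0 had -0.51 ± 0.43 (edgeR adjusted p = 0.436). In all 3 genes WT replicate 1 was the lowest WT library and lay within or near the range of the other group.

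WT MEF replicate 1 was low for many of these genes. The median log2 ratio to the WT mean was -0.52 in replicate 1, 0.40 in replicate 2 and 0.13 in replicate 3, and -0.23, 0.09 and 0.04 in the libraries labelled Atxn7l3-/-. Within numbered pairs the median log2 ratio was 0.10, -0.27 and -0.01, with 48, 31 and 39 of 83 genes positive. Within WT MEFs the highest library was at least 2 times the lowest for 58.8% of the genes, against 37.7% of other genes. Log2 fold changes in MEFs ran with GC content, with a Spearman's rho of -0.64 across the 77 canonical genes and -0.39 across all genes tested, and a correction for GC content moved the median from -0.13 to 0.10 and that of all genes from -0.06 to 0.12. In mESCs the corresponding rho was 0.18 and 0.17. The mesothelial markers differed between the same MEF groups, and their part in these values was not tested.

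Whether the effect of genotype differed between the cell types was tested as the interaction in a fit of all 11 libraries. It was called for 2 of 85 genes, both with a lower value in MEFs, where 5.27% of all 19326 genes were called lower and 6.14% higher. The interaction was negative for 71 of the 85 genes, with a median of -0.64 against -0.09 over all genes. At an unadjusted p under 0.05, 20 genes were lower and 5 higher, where 30.9% of all genes passed (3062 lower and 2919 higher).

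Rps2 was 1 of the 2, with its Atxn7l3-/- mESC libraries all above WT and 2 of its 3 WT MEF libraries above all those labelled Atxn7l3-/-. The difference of the log2 fold changes was -3.65 ± 0.73 (edgeR adjusted p = 0.0151). The other was Rpl39l (-3.35 ± 0.84, edgeR adjusted p = 0.0321), with 2775 and 2941 counts in WT and 1609, 1329 and 1884 counts in Atxn7l3-/- mESCs but only 6, 7 and 9 counts in WT MEFs and 0, 0 and 1 in those labelled Atxn7l3-/-. Its fitted value depends on the prior count, and the call was kept in 11 alternatives and lost in 8, among them the replicate block (-3.25, edgeR adjusted p = 0.0721). Rpl39l was too low to be tested in the MEF fit and entered the joint fit through its mESC counts. Its genotype effect in MEFs lies near the limit of detection, so the difference cannot be sized. Rpl36, whose low level in MEFs is given above, had the largest value (-4.11 ± 1.30) and did not pass (edgeR adjusted p = 0.0649). Rps28 (-2.83 ± 0.86, edgeR adjusted p = 0.0577) and Rps18 (-2.26 ± 0.71, edgeR adjusted p = 0.061) did not pass either. The largest positive values were those of Rpl15 (1.30 ± 0.50), Rpl24 (1.29 ± 0.74) and Rps29 (1.28 ± 0.84), with edgeR adjusted p of 0.112, 0.259 and 0.317.

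WT MEFs and WT mESCs were compared in the same fit, where cell type and table cannot be told apart. Most ribosomal protein genes were measured lower in MEFs, and edgeR called 17 of 85 lower, where 27.1% of all genes were, and 2 higher, where 26.8% were (53.9% in either direction). DESeq2 called 18 lower and 2 higher (28% and 29.3% of all genes). At an unadjusted p under 0.05, 21 were lower and 3 higher, where 59.8% of all genes passed (5798 lower and 5750 higher). A positive log2 fold change was found for 26 genes (49.9% of all genes). The median log2 fold change was -0.46, against -0.00 over all genes. Without WT MEF replicate 1, the low library named above, it was -0.16, against -0.08 over all genes. The libraries did not overlap for 34 genes below (37.6% of all genes) and 3 above (34.7%). Values below are CPM normalised over all 11 libraries.

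Rpl39l had the largest difference, at 53.0 and 60.6 CPM in WT mESCs and at 0.122, 0.219 and 0.220 CPM in WT MEFs (-8.25 ± 0.48, edgeR adjusted p = 2.05e-06). Rpl3l, at 1.26 and 1.67 CPM in WT mESCs, was at 0.0408, 0 and 0.0488 CPM in WT MEFs, or 2, 0 and 2 counts, and was called lower (edgeR adjusted p = 0.000329). Both genes are among those counted as lower above. They were too low to be tested in the MEF fit and passed the filter here through their mESC libraries. Their calls rest on that selection, and their levels are given as a description. Among canonical genes, Rps27a, which encodes a fusion of ubiquitin and a 40S protein, was at 23.8 and 24.5 CPM in WT mESCs and at 5.77, 5.28 and 7.57 CPM in WT MEFs (-1.96 ± 0.34, edgeR adjusted p = 0.000812). Rpl4 differed by -0.93 ± 0.28 (edgeR adjusted p = 0.0164) and Rpl7l1 by -1.08 ± 0.21 (edgeR adjusted p = 0.00173).

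The genes called higher in WT MEFs were Rps27rt and Rps2. Rps27rt was at 0.324 and 0.535 CPM in WT mESCs and at 1.55, 3.78 and 1.07 CPM in WT MEFs (2.30 ± 0.70, edgeR adjusted p = 0.017), which rests on a coding sequence shared with Rps27. Rps2 had 1.56 ± 0.54 (edgeR adjusted p = 0.0306), with overlapping libraries. Rps28 followed with 1.08 ± 0.64 (edgeR adjusted p = 0.175).

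**Figure D5:**
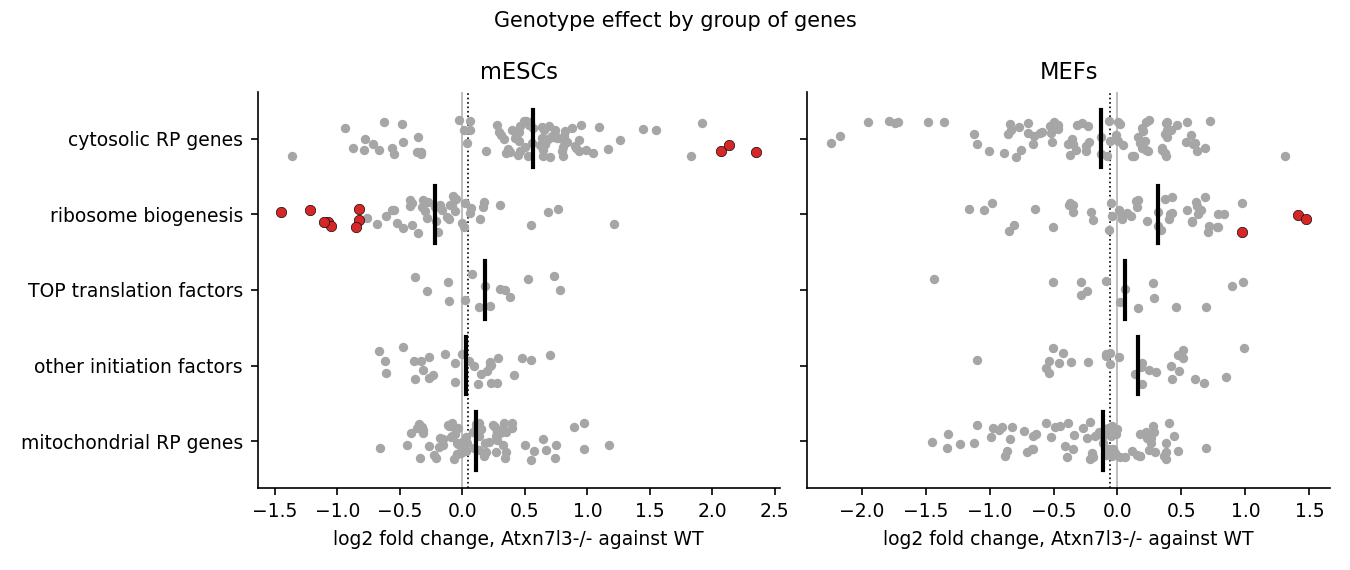
Log2 fold change between the genotypes in mESCs (left) and MEFs (right) of the ribosomal protein (RP) genes and 4 companion lists; each point is a gene, red points were called by edgeR, black bars are list medians, the solid line is 0 and the dotted line the median of all genes tested. In mESCs the median of the cytosolic RP genes is 0.56 and that of the ribosome biogenesis genes -0.22.

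Other genes of ribosome production were counted from lists that were chosen with earlier results of these data known. Of 51 ribosome biogenesis genes, 8 were called lower and none higher in Atxn7l3-/- mESCs, where 3.88% and 3.08% of all genes were, with a median log2 fold change of -0.22, while the ribosomal protein genes had 0.56. Imp4, part of the machinery that processes pre-18S rRNA, had -1.45 ± 0.21 (edgeR adjusted p = 0.0215), and Ubtf, a factor of RNA polymerase I transcription, had -1.22 ± 0.25 (edgeR adjusted p = 0.0344). In MEFs 3 were called higher, where 5.01% of all genes were, among them Dkc1, the pseudouridine synthase of box H/ACA particles (1.47 ± 0.26, edgeR adjusted p = 0.0259), with a median of 0.31. The interaction was called for 13 of the 51, all higher in MEFs, where 6.14% of all genes were called higher and 5.27% lower.

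Of 15 translation factors whose mRNAs carry a TOP motif, or their partners, none was called in either cell type, with medians of 0.18 in mESCs and 0.06 in MEFs, and none of 30 other initiation factors was (0.03 and 0.16). None of the 77 mitochondrial ribosomal protein genes tested was called (0.11 and -0.11). Of all genes tested, 6.96% were called in either direction in mESCs and 9.41% in MEFs. Fau and Rack1 were not called in either cell type. In the interaction, edgeR called the initiation factor genes Eif4g2 (1.41 ± 0.31, adjusted p = 0.0209) and Eif5 (1.44 ± 0.33, adjusted p = 0.024) higher in MEFs and the mitochondrial gene Mrps6 lower (-2.44 ± 0.49, adjusted p = 0.0158). In that test 6.14% of all genes were called higher and 5.27% lower. Between WT MEFs and WT mESCs, Rack1, whose product binds the 40S subunit, was called lower (-1.19 ± 0.36, edgeR adjusted p = 0.0164). Of 12 regulators, Myc, a transcription factor known to drive ribosome production, was called lower in Atxn7l3-/- mESCs (-4.61 ± 0.62, edgeR adjusted p = 0.0211), and its relative Mycn was called higher in MEFs labelled Atxn7l3-/- (3.33 ± 0.53, edgeR adjusted p = 0.0209). Of all genes, 3.88% were called lower in mESCs and 5.01% higher in MEFs.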

How the data were processed

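Poly(A) RNA was sequenced as stranded libraries. The authors aligned reads with STAR (2.5.3a) to mm10, counted them per gene with HTSeq (0.6.1p1) and deposited raw counts per gene. The deposited signal columns hold reads normalized by DESeq2 (1.16.1) per kb of median transcript length, 1 table per cell type. Their columns of fold changes and p-values were not used. One WT mESC dataset that the authors excluded after principal component analysis was not analysed here. How reads with several matches were counted is not given in the sources used here.

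Raw counts were fitted across all genes with edgeR (4.0.16; TMM, filterByExpr, glmQLFit and glmQLFTest) in R (4.3.3), each cell type for itself, and in 1 fit of 11 libraries for the interaction and the cell types. A gene was called at a Benjamini-Hochberg adjusted p of 0.05 or less over all genes tested. SE values were derived from the quasi-likelihood F statistic. Replicates are separate lines, and p-values measure the spread between them. DESeq2 (1.42.0), other scalings, filters, GC and length corrections (lowess span 0.3), the replicate block and leaving out each library were alternatives. That the replicate numbers of the MEFs pair the samples was inferred from the counts. Same-numbered libraries deviated together (r = 0.47, 0.16 and 0.24, all over 0.1), against r between -0.26 and 0.05 for other numbers. Deviations were taken from the group means, which ties these r values to each other, and the block was fitted to the same counts. The r values are therefore not independent support for the block. The main fits have no block, and results with the block are given beside them. Library totals were 34515342 to 49602605 counts. Floors cover counting error only, whereas SE values include the spread between libraries. The scripts were tested on simulated data.

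Named genes were the 3 highest and 3 lowest log2 fold changes of each comparison, the 5 highest and 3 lowest levels per cell type, the X-linked and stalk genes, paralogues with their parents, called genes of short lists, and from other lists called genes with at most 2 examples; Rpl13a, Rps10, Rps27a and, in comparisons outside these, Rpl4 and Rps3 were chosen after their values were seen. Some genes that the rule names are not reported here. The genes and lists were chosen with earlier results of these data known. Promoter sequences are from RefSeq (GRCm38.p6) and coding sequences from GENCODE M21.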

Additional observations from a re-analysis of the deposited data

Results flagged for a closer look

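The interaction term of the fit of all 11 libraries was called for 2 ribosomal protein genes. For Rps2 the log2 fold change in MEFs minus that in mESCs was -3.65, and the call was kept in 19 alternatives and lost in 1. For Rpl39l it was -3.35, on at most 9 counts in any MEF library, and the call was kept in 11 alternatives and lost in 8. Rpl39l was too low to be tested in the MEF fit and entered the joint fit through its mESC counts. Its interaction therefore does not show that the genotype effects differ.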

How the results depend on the processing

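In mESCs, 3 genes were called, against 0 in 1 fit of all 11 libraries, 24 with DESeq2, 25 without a filter on low counts, 20 at an adjusted p of 0.1 and 5 with the replicate block, whose numbers correlated at 0.01 and -0.17 in the 2 pairs and so were not taken to pair the samples. Settings chosen after seeing the data gave 26 calls in the libraries with Y-linked transcripts, where the Atxn7l3-/- arm is 1 library without a replicate, and 0 among genes with at least 50% unique words. Leaving out 1 library gave 0 to 20 calls. In MEFs, 0 genes were called, against 5 in 1 fit, 8 with DESeq2, 1 with GC correction, 1 with length correction, 1 at an adjusted p of 0.1, 3 with the replicate block, 2 with block and GC correction, and 0 to 2 without 1 library (1 without replicate 3 of the labelled Atxn7l3-/- group, 2 without WT replicate 1). The interaction had 2 calls, and 2 with the block, where Rpl39l was not called, against 15 with DESeq2, 6 with at least 10 counts in every library, 14 at an adjusted p of 0.1, 1 among canonical genes, 1 among genes with at least 50% unique words, and 0 to 13 without 1 library (0 without mESC WT replicate 2, 13 without MEF WT replicate 1, 11 without MEF Atxn7l3-/- replicate 3). For WT MEFs against WT mESCs, 19 calls became 30 with library totals alone, 9 among genes with at least 50% unique words, and 7 to 25 without 1 library (10 without mESC WT replicate 1, 7 without mESC WT replicate 2). The difference in share of counts in MEFs was -0.195 percentage points and -0.395 to 0.0168 without 1 library, the last without WT replicate 2. The cause of these shifts was not tested. For most of these settings the share of all genes called is not given, so the counts cannot be set against it. Over 446 alternative fits of results already called in the main fits, the called direction was kept in 446. These fits share most of their libraries with the main fits, so a kept direction says little. The call itself was lost in some, for Rps2, Rps18 and Rps28 in mESCs in 4 alternatives each, and kept in 12. Median log2 fold changes of the genes ranged over the settings from 0.40 to 0.72 in mESCs and from -0.39 to 0.13 in MEFs. The range was -0.75 to -0.16 for WT MEFs against WT mESCs and -0.86 to -0.32 for the interaction. With 2 WT mESC libraries and 1 dataset left out by the authors, the WT spread rests on few samples.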
